A study of Mus musculus with 4 samples.

Results

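The genes described here are 10 transcription factors of the lung epithelial progenitors: Nkx2-1, Foxa1, Foxa2, Gata6, Foxp1, Foxp2, Sox2, Sox9, Id2 and Mycn. They were taken by gene symbol from a table of 22556 genes, and all 10 symbols were found. RNA of whole lungs was sequenced at embryonic day 16.5 (E16.5) from 2 Control libraries (Shh-Cre; Stk11F/+) and 2 Shh-Stk11 libraries (Shh-Cre; Stk11F/F). Both groups thus carried the Shh-Cre driver and at least 1 floxed allele of Stk11, the gene of a serine/threonine kinase and tumor suppressor, and the groups differed in the other allele. Shh-Cre recombines in endoderm, from which the lung epithelium forms, so mesenchyme, vessels and blood in the same sample kept an intact Stk11. The strain was given as C57BL/6 in the labels and as mixed in the methods of the study. Because whole organs were sequenced, fewer cells of a type and less RNA per cell cannot be told apart in any value below. Values are FPKM, fragments scaled to transcript length and to the mapped reads of the library, so that levels of different genes can be compared per length.

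During lung development the epithelium grows as a branching tree whose distal tips hold multipotent progenitors, while cells left behind in the stalks become airway. NKX2-1 marks the lung primordium and is required for lung epithelial fate, and the forkhead factors FOXA1 and FOXA2 act beside it. SOX2 marks the proximal airway, SOX9 and ID2 mark the distal tips, and N-MYC, encoded by Mycn, sustains growth of the tips. FOXP1 and FOXP2 are forkhead repressors of the developing airway and distal epithelium, and GATA6 acts in the maturation of the distal epithelium. Several of these genes are also active outside the epithelium, Gata6 in smooth muscle and mesenchyme, Sox9 in cartilage, and Id2 and Foxp1 in many cell types.

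Depth and sample checks came first. The spacing of low values corresponded to between 30.9 M and 38.1 M reads per library, and between 13623 and 13709 genes per library reached 0.5 FPKM. Stk11 was at 44.0 and 45.5 FPKM in the Control libraries and at 29.5 and 26.0 FPKM in the Shh-Stk11 libraries, a log2 difference of -0.69 (adjusted p = 0.0499, limma), and this call was lost under 12 of 16 alternative settings, including each of those without 1 library (adjusted p between 0.113 and 0.183). The library Shh-Stk11 2 stood apart in sex: Xist was at 0.239 FPKM there and between 65.1 and 169 FPKM in the other libraries, whereas the Y-linked Ddx3y was at 23.5 FPKM there and at most 0.0285 FPKM elsewhere. Values without that library are given beside the differences of the 10 factors that it moved by over 1.5 times. Markers of lung epithelium were present in every library, with summed levels of 12 genes between 1165 and 1233 FPKM in Control and between 1284 and 1471 FPKM in Shh-Stk11.

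The transcription factors kept a similar order of levels in both groups, and none of the 10 passed the test of the genotype difference. With limma and an adjusted p under 0.05, 0 of 10 were called, against 2.27% of the 13770 genes tested (0.980% higher and 1.29% lower). At an unadjusted p under 0.05 there were 4 of 10, Foxa2, Sox9, Foxp1 and Foxp2, all of them higher in Shh-Stk11, where 8.04% of all tested genes were higher by that rule. The Shh-Stk11 values of 9 factors lay outside the range of the Control values, 5 above it and 4 below it, and the same held for 46.8% of all tested genes, 19.2% above and 27.6% below. The median log2 difference (Shh-Stk11 minus Control) of the 10 was 0.26, beside -0.05 over all genes tested, and the median of their absolute differences was 0.33, beside 0.17. Of the 4 libraries, Shh-Stk11 1 and Control 1 carried most weight in these counts: without Shh-Stk11 1 the median was 0.12 and 1 factor had an unadjusted p under 0.05 (10.7% of all tested genes), and without Control 1 the median was 0.13 and 2 factors had one (14.3%). With 2 libraries a group the smallest two-sided p of an exact permutation test is 0.333, and the p-values of limma draw on variance estimated across all genes.

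**Figure D1:**
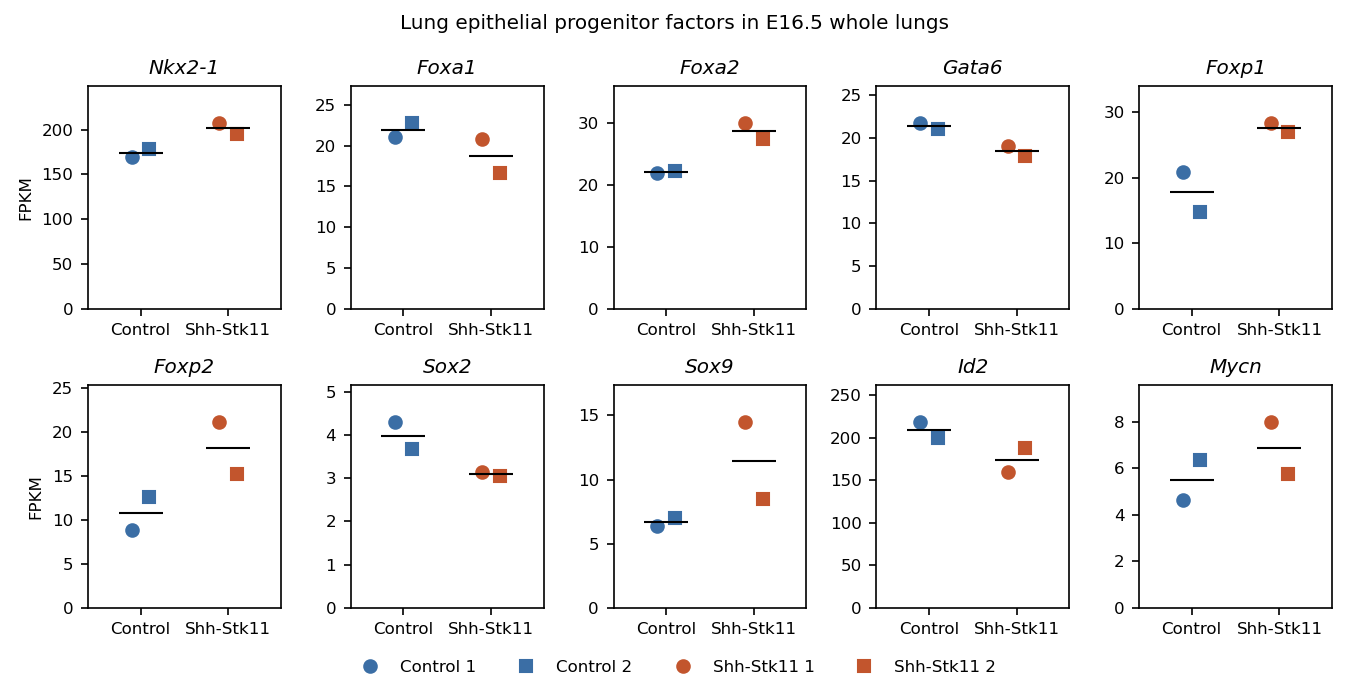
FPKM of the 10 factors in each of the 4 libraries, with points for single libraries and bars for the group means. Id2 and Nkx2-1 have the highest values, and Mycn is the factor whose groups overlap.

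**Figure D2:**
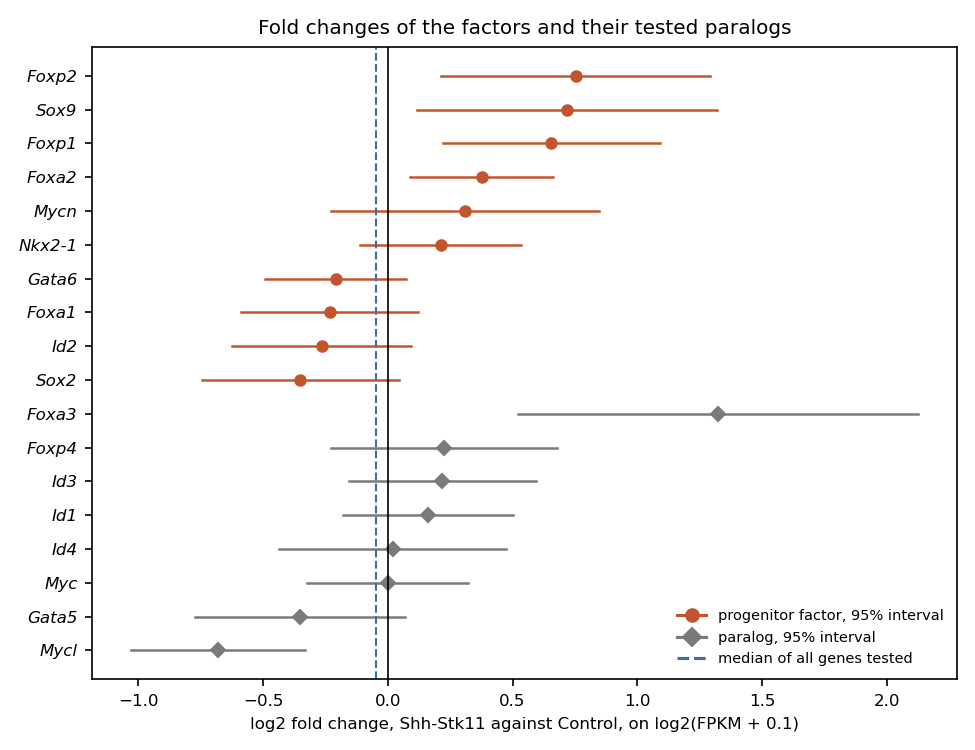
Log2 difference of each factor (Shh-Stk11 minus Control, on log2(FPKM + 0.1)) with its 95% interval from limma, beside the median of all genes tested. The intervals of Foxa2, Sox9, Foxp1 and Foxp2 lie above 0, and the remaining 6 include 0.

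Among the factors shared by the whole epithelium, Nkx2-1 was the most abundant. Its level was 169.5 and 178 FPKM in Control 1 and 2 and 207 and 196 FPKM in Shh-Stk11 1 and 2, which placed it at rank 462 of the tested genes in Control. Both Shh-Stk11 values lay above both Control values. The difference was 0.21 on the log2 scale (SE 0.13, 95% interval from -0.11 to 0.53) and did not pass the test (adjusted p = 0.520, limma), and its sign turned to -0.05 when levels were set against general epithelial genes.

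The forkhead pair Foxa1 and Foxa2, pioneer factors that open chromatin in endoderm, stood at similar levels in Control and apart in Shh-Stk11. Foxa1 was at 21.0 and 22.8 FPKM in the Control libraries and at 20.8 and 16.6 FPKM in the Shh-Stk11 libraries. Its lower Shh-Stk11 value was that of the male library, while Shh-Stk11 1 lay just under Control 1. The log2 difference was -0.23 (SE 0.15, 95% interval from -0.59 to 0.12; adjusted p = 0.521, limma). Leaving out Shh-Stk11 2 gave -0.07, and leaving out Shh-Stk11 1 gave -0.39. Foxa2 was at 22.01 and 22.3 FPKM in Control and at 30.1 and 27.6 FPKM in Shh-Stk11. The Control libraries lay close together, and both Shh-Stk11 libraries were above them. The log2 difference was 0.38 (SE 0.12, 95% interval from 0.09 to 0.66), with an unadjusted p of 0.0176 and an adjusted p of 0.190 in limma. Set within each library, the log2 ratio of Foxa2 to Foxa1 was 0.07 and -0.03 in Control and 0.53 and 0.72 in Shh-Stk11. This ratio was chosen after the values were seen and was not tested. Of the summed FPKM of the FOXA family, Foxa1 made up 48.4% and 50.2% in Control and 40.1% and 36.8% in Shh-Stk11. The third member, Foxa3, was low, at 0.430 and 0.276 FPKM in Control and 0.954 and 1.08 FPKM in Shh-Stk11. Its log2 difference was 1.32 (adjusted p = 0.113, limma). Foxa3 reached the filter of 0.5 FPKM only through the Shh-Stk11 libraries, so its p-values are no support for a difference.

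Promoter sequence is shown for 3 factors, because their RefSeq promoter windows held the binding letters of a factor class to which members of this group belong. Windows of RefSeq (GRCm38.p6) were found for 7 of the 10 factors, 11 windows in all, and the 250 bases upstream of each start were searched on both strands for 6 motifs. The letters were TGTTTAC for forkhead factors (present in 3.17% of 32851 mouse windows), CTCAAG for NKX2-1 (13.3%), AGATAA for GATA factors (9.99%), ACAATGG for SOX factors (3.02%), CACGTG for the E-box of MYC and MAX (6.02%) and TGACGTCA for the cAMP response element (1.55%). The Foxa1 window held 1 forkhead match, read on the opposite strand as GTAAACA from -141 to -135 of the start. One of the 3 Foxa2 windows held an NKX2-1 match, read as CTTGAG from -187 to -182, which overlaps a GATA match from -183 to -178. One of the 3 Foxp1 windows held a SOX match, read as CCATTGT from -86 to -80. The windows of Nkx2-1, Sox2, Id2 and Mycn held none of the 6 motifs. A match of letters is a description of the window and no measurement of binding. The stretches printed run from -250 to -51 of the start, on the minus strand of chr12:57546162-57546361 (Foxa1), chr2:148045515-148045714 (Foxa2) and chr6:99028349-99028548 (Foxp1). Each lies inside the RefSeq span of its gene (chr12:57540628-57548029, chr2:148042877-148046969 and chr6:98925342-99522746), ahead of an internal start. Each is also outside the exons annotated in GENCODE M21. Capitals mark the motif matches.
Foxa1: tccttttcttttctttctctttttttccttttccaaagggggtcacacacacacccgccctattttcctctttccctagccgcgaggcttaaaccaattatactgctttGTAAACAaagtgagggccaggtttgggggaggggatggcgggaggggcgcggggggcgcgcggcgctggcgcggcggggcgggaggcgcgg
Foxa2: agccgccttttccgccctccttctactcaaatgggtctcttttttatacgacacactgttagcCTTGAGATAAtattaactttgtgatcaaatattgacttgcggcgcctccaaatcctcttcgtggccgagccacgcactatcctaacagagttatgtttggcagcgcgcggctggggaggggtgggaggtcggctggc
Foxp1: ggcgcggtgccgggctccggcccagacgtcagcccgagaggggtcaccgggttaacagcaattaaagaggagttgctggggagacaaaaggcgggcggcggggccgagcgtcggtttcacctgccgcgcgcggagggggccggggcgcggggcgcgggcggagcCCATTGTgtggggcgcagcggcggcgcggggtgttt

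Gata6, a zinc finger factor, was close to Foxa1 in level in both groups. Its values were 21.7 and 21.1 FPKM in Control and 19.1 and 17.9 FPKM in Shh-Stk11. All Shh-Stk11 values lay below those of Control, by a log2 difference of -0.21 (SE 0.12, 95% interval from -0.49 to 0.07; adjusted p = 0.472, limma). Among its relatives, Gata5 was at 10.6 and 11.4 FPKM in Control and at 10.03 and 7.36 FPKM in Shh-Stk11 (-0.35 on the log2 scale; adjusted p = 0.415, limma), and Gata4 reached at most 0.437 FPKM. The Gata5 difference was -0.13 without Shh-Stk11 2, -0.57 without Shh-Stk11 1 and -0.21 with the trend on length and GC content removed. Gata6 is also a heart gene. The 5 heart muscle markers summed to 101 and 223 FPKM in Control and to 128 and 49.5 FPKM in Shh-Stk11. The differences of Myh6, Myl7 and Tnnt2 were -1.18, -1.09 and -0.86 on the log2 scale with overlapping groups and 0 passing, and the atrial gene Nppa was at no more than 0.290 FPKM in any library.

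Foxp1 and Foxp2 showed log2 differences above those of the epithelial factors just described. Foxp1 was at 20.8 and 14.7 FPKM in Control and at 28.3 and 26.9 FPKM in Shh-Stk11. Here the spread was in the Control group, with Control 2 the lowest library. The log2 difference was 0.66 (SE 0.18, 95% interval from 0.22 to 1.09; unadjusted p = 0.00953, adjusted p = 0.140, limma), 0.41 without Control 2 and 0.90 without Control 1. Foxp2 was at 8.86 and 12.6 FPKM in Control and at 21.1 and 15.2 FPKM in Shh-Stk11. Its groups did not overlap, although the libraries within each group also lay far apart. The log2 difference was 0.75 (SE 0.22, 95% interval from 0.21 to 1.29; unadjusted p = 0.0136, adjusted p = 0.169, limma). It was 0.50 without Control 1 and 0.52 without Shh-Stk11 1, and 1.01 without Control 2 and 0.99 without Shh-Stk11 2. The related Foxp4, another lung forkhead repressor, was at 15.6 and 14.7 FPKM in Control and at 21.2 and 14.7 FPKM in Shh-Stk11, so that its high value came from 1 library. Foxp3, the regulatory T cell factor, stayed at or below 0.0490 FPKM.

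Transcript length moved with the values of this pair. The longest annotated transcripts of Foxp1 and Foxp2 have 7177 and 6760 bases and fall into the longest of 10 equal classes of tested genes, whose median log2 difference was 0.19, beside -0.19 in the shortest. The other 8 factors fall into shorter classes with medians between -0.12 and -0.01. With the trend on length and GC content removed within each library, the log2 difference was 0.46 for Foxp1 (adjusted p = 0.223, limma) and 0.51 for Foxp2 (adjusted p = 0.418, limma), whereas that of Foxa2 was 0.54 (adjusted p = 0.106, limma) and that of Nkx2-1 was 0.37 (adjusted p = 0.164, limma). In the same fit Foxa1, Gata6 and Sox2 had smaller differences than before, of -0.10, -0.10 and -0.21. Those of Sox9, Mycn and Id2 were 0.77, 0.46 and -0.21. Over all 16 alternatives the adjusted p ran from 0.0841 to 0.408 for Foxp1, from 0.0231 to 0.558 for Foxp2, from 0.106 to 0.644 for Foxa2 and from 0.164 to 0.916 for Nkx2-1, and the value under 0.05 came from the crossed pairing alone, an alternative chosen after seeing the data. The part of transcript length in the values was not tested further.

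The proximal and distal factors were the least abundant of the group, except for Id2. Sox2, the proximal airway factor, was at 4.29 and 3.68 FPKM in Control and at 3.14 and 3.06 FPKM in Shh-Stk11. Both Shh-Stk11 values were below both Control values, and the male and female Shh-Stk11 libraries differed little. An estimated 179 to 302 reads per library lay behind these values, so counting error alone was up to 7.47% of a value. The log2 difference was -0.35 (SE 0.16, 95% interval from -0.74 to 0.04; adjusted p = 0.388, limma). Nearly all SOXB1 signal was Sox2, which made up at least 98.9% of the sum of Sox1, Sox2 and Sox3 in every library.

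Sox9, the distal tip factor, was at 6.35 and 7.03 FPKM in Control and at 14.5 and 8.45 FPKM in Shh-Stk11. The groups did not overlap, but the high mean of Shh-Stk11 came largely from Shh-Stk11 1. Its log2 difference was 0.72 (SE 0.25, 95% interval from 0.12 to 1.32; unadjusted p = 0.0260, adjusted p = 0.238, limma). Without Shh-Stk11 1 the difference was 0.33, and without Shh-Stk11 2, which leaves female libraries, it was 1.10. Sox9 is also the master factor of cartilage. The 9 cartilage markers summed to 15.8 and 17.1 FPKM in Control and to 18.4 and 13.1 FPKM in Shh-Stk11. Among them Col2a1, the main collagen of cartilage and a SOX9 target, was at 0.255 and 0.275 FPKM in Control and at 0.891 and 0.407 FPKM in Shh-Stk11, the same order of libraries as Sox9, and Acan and Matn1 were at or below 0.0860 FPKM. Col2a1, Acan and Matn1 were below the filter on low values and were not tested. Among the 6 cartilage markers tested the largest log2 differences were those of Cnmd (-0.89), Col9a1 (0.76) and Col11a2 (0.67). By limma 0 of the 6 passed, and 0 had an unadjusted p under 0.05. Of the 6, 3 were above 0 and 3 below. Col11a2 reached the filter only through Shh-Stk11, with a Control mean of 0.365 FPKM. Hapln1, the largest part of the summed level, and Col9a2 had differences of -0.29 and -0.47. Both had their Shh-Stk11 values under both Control values. The part of cartilage in the Sox9 values was not tested.

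Id2 encodes an inhibitor of basic helix-loop-helix factors and had the highest Control level of the 10, at rank 374. It was at 218 and 199.7 FPKM in Control and at 160.1 and 188 FPKM in Shh-Stk11. The Shh-Stk11 values were the lower ones, with a log2 difference of -0.27 (SE 0.15, 95% interval from -0.63 to 0.10; adjusted p = 0.472, limma), and of -0.15 without Shh-Stk11 1. Its share of the summed ID family differed less between libraries of a group than its level did. Id2 made up 41.6% and 41.8% of the family in Control and 34.2% and 34.3% in Shh-Stk11, while Id1 held 27.2% and 28.1% against 30.7% and 30.4%, and Id3 30.6% and 29.2% against 34.1% and 34.7%. These shares were compared after the values were seen and were not tested.

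Mycn was the factor whose groups overlapped. Its level was 4.64 and 6.38 FPKM in Control and 7.98 and 5.75 FPKM in Shh-Stk11. Shh-Stk11 1 was above both Control libraries, but Shh-Stk11 2 lay between them, and the log2 difference was 0.31 (SE 0.22, 95% interval from -0.23 to 0.85; adjusted p = 0.573, limma). This value moved with single libraries, to 0.09 without Control 1, 0.08 without Shh-Stk11 1, 0.53 without Control 2 and 0.54 without Shh-Stk11 2. Its relative Mycl, listed under the older symbol Mycl1, was at 5.84 and 6.33 FPKM in Control and at 3.85 and 3.66 FPKM in Shh-Stk11, with a log2 difference of -0.68 (adjusted p = 0.0754, limma). Myc was between 6.22 and 6.69 FPKM in all 4 libraries. Of the 17 close relatives listed for the 10 factors, 8 were tested and 0 passed by limma. Foxa3 and Mycl had an unadjusted p under 0.05, as 15.2% of all tested genes did. Foxa3 reached the filter on low values only through Shh-Stk11, so its p-values are no support for a difference. It passed with variance moderated without the trend. Mycl passed in the crossed pairing and under scaling to the epithelial genes, where 412 genes over all were called lower and 49 higher.

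A single value per library set the proximal factor against the distal one. The log2 ratio of Sox2 to Sox9 was -0.55 and -0.91 in Control and -2.17 and -1.44 in Shh-Stk11. Both Shh-Stk11 ratios lay below both Control ratios, with means of -1.80 ± 0.52 and -0.73 ± 0.25 (SD, n = 2 each). The difference of -1.07 had an exact two-sided permutation p of 0.333, the smallest that this design allows. It stayed negative without any 1 library, at -0.70 without Shh-Stk11 1 and -1.43 without Shh-Stk11 2.

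The order of levels was read from the same values. In Control the factors ranked Id2, Nkx2-1, Foxa2, Foxa1, Gata6, Foxp1, Foxp2, Sox9, Mycn and Sox2. Neighbours whose Control libraries overlapped were Foxa2 and Foxa1, Foxa1 and Gata6, and Sox9 and Mycn. In Shh-Stk11 Nkx2-1 stood above Id2, Foxp1 came to follow Foxa2, and the overlapping neighbours were Foxa2 and Foxp1, Foxa1 and Gata6, and Gata6 and Foxp2.

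Cell type markers were read beside these values. All 12 epithelial genes had a log2 difference above 0 (median 0.22, 0 passing by limma, 3 at an unadjusted p under 0.05), all 10 mesenchymal genes had one below 0 (median -0.37, 0 passing, 5 at an unadjusted p under 0.05), and so had all 7 endothelial genes (median -0.38, 0 passing, 3 at an unadjusted p under 0.05). Over the 13770 genes tested, 5737 had a difference above 0 and 8033 one below 0, and 15.2% had an unadjusted p under 0.05. The median of the epithelial genes was 0.11 without Shh-Stk11 2 and 0.36 with the trend on length and GC content removed. The largest differences were those of the junction genes Cldn6 (0.72), Cdh1 (0.49) and Cldn7 (0.37), of the mesenchymal factors Tcf21 (-0.51), Tbx4 (-0.45) and Tbx5 (-0.39), and of the vessel genes Cldn5 (-0.65), Emcn (-0.38) and Tie1 (-0.38). The 10 mesenchymal genes summed to between 2212 and 2431 FPKM in Control and between 1762 and 1931 FPKM in Shh-Stk11, and the 7 endothelial genes to between 587 and 689 and between 474 and 506 FPKM. The part of cell composition in the values of the 10 factors was not tested, but each factor was also expressed relative to the 12 epithelial genes of its own library. On that scale the median of all genes tested was -0.31 and the median of the 10 factors was -0.0046. Foxa1, Sox2, Id2 and Gata6 had both Shh-Stk11 values under both Control values, 4 of 10 factors where the same held for 63.2% of all tested genes, with log2 differences of -0.50, -0.62, -0.53 and -0.47 (adjusted p between 0.0567 and 0.0906, limma), the lowest adjusted p-values that these 4 reached in any of the alternatives. For Nkx2-1 the difference was -0.05, the opposite sign to that before. Sox9, Foxp1 and Foxp2 had differences of 0.45, 0.39 and 0.49, with overlapping groups. For Foxa2 and Mycn they were 0.11 and 0.04, also with overlap.

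**Figure D3:**
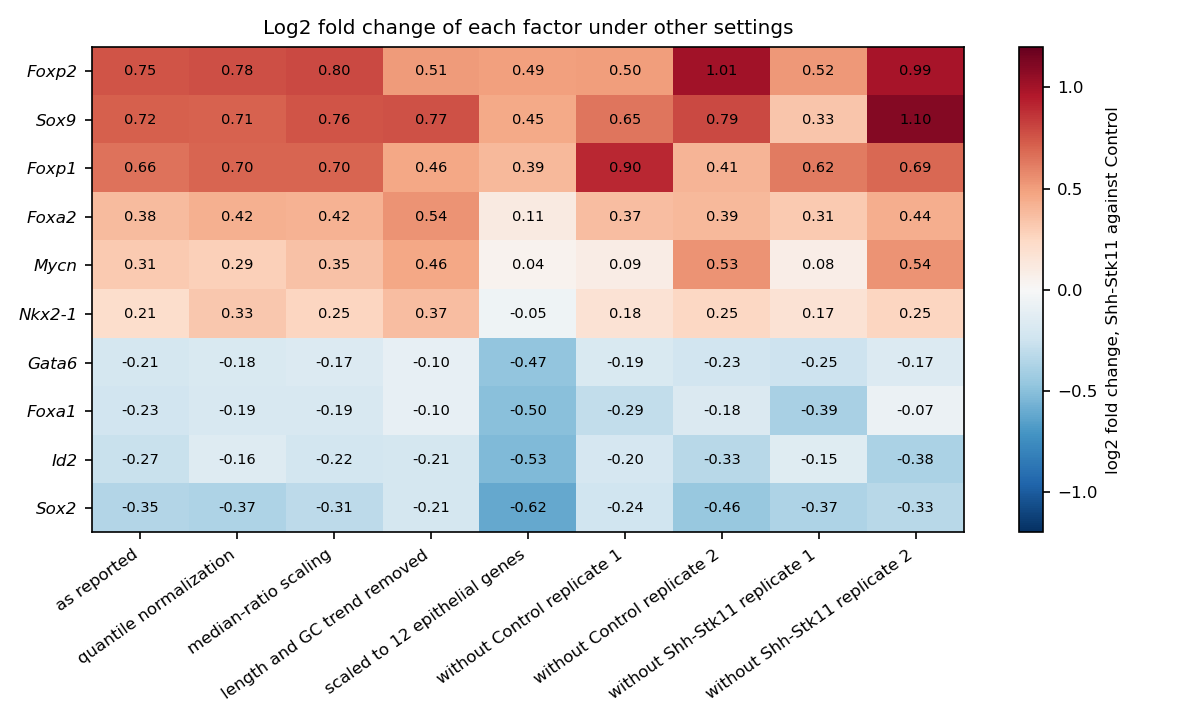
Log2 difference of each factor (rows) under the reported fit and alternative settings (columns), as color. The sign turned for Nkx2-1 under scaling to 12 epithelial genes, from 0.21 to -0.05.

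Genes that work with the 10 factors were read from lists. Of 11 partner genes, 0 passed by limma, and 3 had an unadjusted p under 0.05, as 15.2% of all tested genes did: Tcf4, a dimer partner of helix-loop-helix factors (log2 difference 0.53), Tle3, a corepressor (0.48), and Max, the partner of MYC proteins (-0.30). With the trend on length and GC content removed, Tcf4 had a difference of 0.16 and Max one of -0.17, both with an unadjusted p above 0.05, and Tle3 had one of 0.31 without Control 2. Of 16 genes of tip signalling, 0 passed, with Spry1 (0.36), Wnt2 (-0.67) and Axin2 (-0.57) at an unadjusted p under 0.05, 3 of 16 beside the same 15.2%. Wnt2, a mesenchymal ligand of the lung field, was at 41.5 and 42.3 FPKM in Control. In Shh-Stk11 Wnt2 was at 23.2 and 29.8 FPKM (adjusted p = 0.0869, limma). It passed under scaling to the epithelial genes, where 412 genes over all were called lower and 49 higher. Axin2, a WNT target, was at 13.9 and 10.1 FPKM in Control and at 7.83 and 8.02 FPKM in Shh-Stk11 (adjusted p = 0.184, limma), with a log2 difference of -0.34 without Control 1. Fgf9, a ligand of the distal epithelium and mesothelium, had a log2 difference of -0.48 (adjusted p = 0.505, limma), -0.22 without Shh-Stk11 2 and -0.74 without Shh-Stk11 1.

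Other epithelial regulators included genes that did pass. Of 28 tested of 30 listed, 2 were called higher and 1 lower in Shh-Stk11, beside 0.980% and 1.29% of all genes tested. The median log2 difference of the 28 was 0.07. Irx2, an Iroquois homeobox gene, rose from 33.8 and 39.1 FPKM in Control to 85.1 and 80.3 FPKM (log2 difference 1.18, SE 0.13; adjusted p = 0.0109, limma). Its relative Irx1 rose from 49.1 and 46.4 FPKM to 76.4 and 79.9 FPKM (0.71, SE 0.12; adjusted p = 0.0398, limma). Irx3 and Irx5 had differences of -0.02 and 0.03. Foxj1, the master factor of motile cilia, fell from 16.1 and 15.4 FPKM to 4.76 and 4.71 FPKM (-1.71, SE 0.13; adjusted p = 0.00329, limma). The Irx2 call was lost under 4, the Irx1 call under 8 and the Foxj1 call under 3 of the 16 alternative settings. These included the fits without Control 1 and without Control 2, where the adjusted p was 0.0806 and 0.0668 for Irx2, 0.144 and 0.166 for Irx1, and 0.0563 and 0.0612 for Foxj1 (limma), and for Irx1 also those without Shh-Stk11 1 (0.140) and Shh-Stk11 2 (0.149). Under scaling to the epithelial genes the Irx1 difference was 0.44 and did not pass (adjusted p = 0.0626, limma).

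Textbook targets of NKX2-1 and the FOXA factors had log2 differences of both signs, 5 above 0 and 4 below. Of these, 0 were called higher and 1 lower, beside 0.980% and 1.29% of all genes tested. Of 9 tested, Scgb3a2, an airway secretory gene, fell from 552 and 679 FPKM in Control to 286 and 185 FPKM in Shh-Stk11 (log2 difference -1.41, SE 0.24; adjusted p = 0.0422, limma), and this call was lost under 10 of the 16 alternatives, among them the fits without Control 1 (adjusted p = 0.172), Control 2 (0.214) and Shh-Stk11 2 (0.137). Scgb1a1, the marker of club cells, was at 221 and 102 FPKM in Control and at 312 and 471 FPKM in Shh-Stk11 (1.35; adjusted p = 0.144, limma). Sftpd, a surfactant protein gene, was at 76.0 and 33.6 FPKM in Control and at 143 and 301 FPKM in Shh-Stk11 (2.04; adjusted p = 0.0853, limma). For the latter pair Shh-Stk11 2 was the highest library and Control 2 the lowest. Without Shh-Stk11 2 the log2 difference was 1.05 for Scgb1a1 and 1.499 for Sftpd, and without Control 2 it was 0.79 and 1.45. Both genes passed in the crossed pairing (adjusted p = 0.0203 and 0.00193, limma), whereas over the alternatives the adjusted p reached 0.378 and 0.292. The median over the 9 targets was 0.02.

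**Figure D4:**
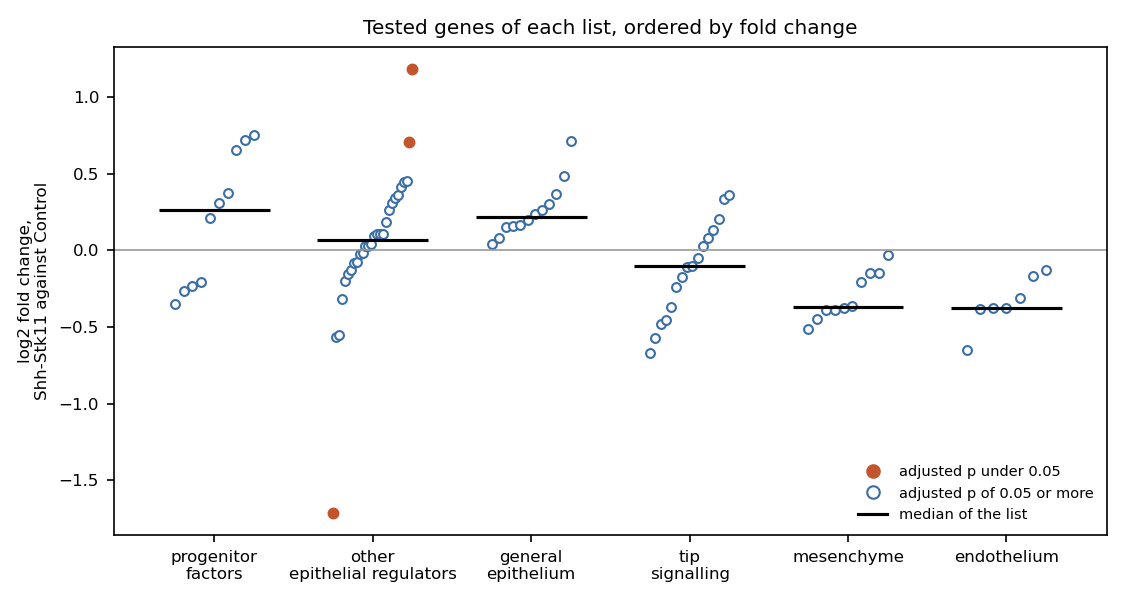
Log2 differences of the tested genes in each list, with a line at each list's median. The medians are 0.26 for the 10 factors, 0.22 for the epithelial genes, -0.37 for the mesenchymal genes and -0.38 for the endothelial genes.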

How the data were processed

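RNA of whole E16.5 mouse lungs was sequenced in 4 libraries. The authors deposited their FPKM values in 1 table of genes by libraries. The submitters' processing notes name TopHat2 2.0.13 and Cufflinks 2.2.1 and the builds GRCm38 and mm9 without their roles. The annotation is not given in the sources used here. The labels do not say that replicates are separate animals, although the methods of the study speak of independent replicates, so p-values measure the spread between these libraries.

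The 13770 genes whose mean over the libraries reached 0.5 FPKM were fitted on log2(FPKM + 0.1) with limma 3.58.1 in R 4.3.3, with genotype as the only term and eBayes with a trend. Tests were two-sided, with Benjamini-Hochberg adjustment over all genes tested and a threshold of 0.05. The pseudocount of 0.1 makes log2 differences of low genes smaller. FPKM values are not counts, so no count model was used. Depth was estimated from the steps between low values of 254 genes with a single transcript. Of the 158 to 182 of them used per library, between 67.1% and 74.7% lay within 0.1 of a whole number of reads. Read numbers of single genes and their error come from it and cover counting error only. For transcript lengths, 20242 symbols were found in GENCODE M21 as written and 1918 by way of RefSeq synonyms, and 396 had no match. Sequences are from RefSeq.

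The factors and lists were chosen with earlier results of these data known. All 10 factors are named, and from each other list the genes past the threshold, the 3 tested genes with the largest absolute difference (fewer where fewer were tested), relatives set side by side in a family, and markers that bear on a factor. Some marker genes that this rule names are not reported here. Irx3, Irx5 and Spry1 were named after their values were seen. Alternatives covered pseudocounts, filters, scaling, variance moderation, length and GC content, the replicate block and leaving out each library. The fit was tested on simulated data.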

Additional observations from a re-analysis of the deposited data

How the results depend on the processing

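The differences of the 10 factors were recomputed under 16 alternative settings, 15 planned and 1 added after seeing the data, giving 159 values. Of these, 157 kept their sign and their side of the threshold. The log2 difference of Nkx2-1 turned from 0.21 to -0.054 under scaling to the 12 epithelial genes. By limma 0 factors passed the threshold in the 15 planned settings. Scaling to the epithelial genes also left 4 factors with groups that did not overlap, beside 69.5% of all tested genes. It put the median of the 10 factors at -0.0046. Removing the trend on length and GC content put the median of the 10 at 0.41. A filter of at least 5 FPKM left no value for Sox2. Leaving out 1 library in turn gave a median between 0.12 and 0.35, between 1 and 4 factors at an unadjusted p under 0.05 (10.7% to 14.3% of all tested genes), between 9 and 10 factors without overlap (69.2% to 77.7% of all tested genes), and a Sox2 to Sox9 log2 ratio difference between -1.43 and -0.70. The lone library left in a group was then assumed to vary like the other group.

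With the replicate number as a block, 0 factors passed and 4 had an unadjusted p under 0.05 (13.8% of all tested genes), while the calls over all genes were 6 higher and 7 lower, beside 135 and 178 without the block and 20 and 41 without a filter on low values. Scaling to the epithelial genes gave 49 higher and 412 lower. Deviations of libraries with the same number had a correlation of -0.114 across 13770 genes, so the numbers were not taken as pairs. A crossed pairing, chosen after seeing the data, called 1 of the 10 factors, and 360 higher and 315 lower genes over all. Depth limits Sox2, the lowest factor, the most.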

Other observations

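The genes most like the factors at either end were sought among 9813 genes that averaged 5 FPKM or more, by the Euclidean distance of log2 values centred on each gene's mean over the 4 libraries. For Sox2, the factor with the lowest log2 difference, they were Pltp, Sipa1 and Arhgef15, at distances of 0.0354, 0.0359 and 0.0472. For Foxp2, the factor with the highest, they were Zcchc11, Eif3a and Smc4, at distances of 0.0761, 0.0892 and 0.102. With 4 libraries this likeness is a description.

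Markers of neighbouring organs and of blood were measured beside the factors. The oesophageal keratins Krt4 and Krt13 summed to 1.46 and 2.10 FPKM in Control and to 2.76 and 3.04 FPKM in Shh-Stk11, with Krt13 at 0.735 and 0.543 against 1.64 and 1.87 FPKM (adjusted p = 0.0623, limma). Liver markers summed to between 0.627 and 2.08 FPKM, with Alb at a log2 difference of -0.57. Immune markers summed to 325 and 288 FPKM in Control and to 196 and 381 FPKM in Shh-Stk11, with log2 differences of 0.77 for Ptprc, 0.32 for Cd68 and -0.20 for Lyz2. Red blood markers, of which 5 of 6 were in the table, summed to 165 and 166 FPKM in Control and to 97.1 and 100.1 FPKM in Shh-Stk11, and Hba-x, an embryonic globin gene, fell from 16.5 and 16.4 FPKM to 4.87 and 6.89 FPKM (log2 difference -1.49; adjusted p = 0.0158, limma), a call lost without Control 1 (adjusted p = 0.144), without Control 2 (0.146), with the replicate block (0.0887) and with no filter on low values (0.0874). Hbb-y, another embryonic globin gene, was at 26.4 and 29.1 FPKM in Control and at 6.14 and 12.4 FPKM in Shh-Stk11 (-1.66; adjusted p = 0.0522, limma), and Alas2 had a difference of -0.57 (adjusted p = 0.0748, limma).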
